A study of Mus musculus with 24 samples.

Results

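The 10 genes described here steer monocytes and T cells, and were followed in heart, stomach, skeletal muscle and tongue of Trex1-/- mice: 9 ligands of the CC chemokine family (Ccl2, Ccl3, Ccl4, Ccl5, Ccl6, Ccl7, Ccl8, Ccl9 and Ccl12) and the receptor gene Ccr2. They are 10 of the 54532 genes in the count files, chosen as the rows whose Ensembl identifier carries a member symbol in GENCODE M21. Each of the 8 groups held 3 samples, giving 24 libraries of polyA+ RNA, and every mouse lacked Trex1, the DNA exonuclease whose loss activates cGAS-STING signalling. The groups were untreated and SN-011-treated Trex1-KO mice, SN-011 being a STING antagonist, and the samples compared had no wild-type mice among them. The sample labels give SN-011 at 5 mg/kg, 3 times a week for 4 weeks. The methods text differs, with daily intraperitoneal injection of 10 mg/kg for 2 weeks, vehicle rather than no treatment in the controls, and mice 1 month old on a C57BL/6J background. The labels do not say whether samples numbered alike in different tissues came from 1 mouse, nor that samples came from separate mice, so p-values measure the spread between these samples.

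CC chemokines are small secreted proteins with adjacent cysteines near the amino terminus, and they draw leukocytes along a gradient through G protein-coupled receptors. Ccl2, Ccl7, Ccl8 and Ccl12 form the monocyte chemoattractant group. Ccl2, Ccl7 and Ccl12 act through Ccr2, the receptor that lets inflammatory monocytes leave the bone marrow and enter tissue, whereas mouse Ccl8 acts mainly through Ccr8. Ccl3, Ccl4 and Ccl5 attract T cells and macrophages, and Ccl6 and Ccl9 are rodent chemokines made largely by myeloid cells, and they act through Ccr1, which Ccl3, Ccl5 and Ccl7 can also bind. STING signals through IRF3 and NF-kB, both of which can act at chemokine genes.

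The 9 ligand genes lie in 1 cluster on chromosome 11 (GRCm38), from chr11:82035571 at the start of Ccl2 to chr11:83664683 at the end of Ccl4, and Ccr2 lies at chr9:124101950-124113557. Ccl2 (chr11:82035571-82037453), Ccl7 (chr11:82045712-82047525), Ccl12 (chr11:82101845-82103400) and Ccl8 (chr11:82115185-82116799) follow each other on the plus strand. Ccl5 (chr11:83525778-83530518), Ccl9 (chr11:83572919-83578636), Ccl6 (chr11:83587882-83593087) and Ccl3 (chr11:83647844-83649355) lie on the minus strand, and Ccl4 (chr11:83662584-83664683) on the plus strand. Ccl2 overlaps Gm17268 and Ccl6 overlaps E230016K23Rik, each on the other strand and with 0 exonic bases in common. The adjacent cysteine codons that name the family stand in capitals here, with 12 coding bases on either side, read from the longest coding transcript of 8 ligands in GENCODE M21. Each of these 8 coding sequences held such a pair in frame, searched as TGT or TGC followed by TGT or TGC, and each held it once.
Ccl2: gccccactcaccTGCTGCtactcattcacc
Ccl7: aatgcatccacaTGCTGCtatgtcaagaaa
Ccl8: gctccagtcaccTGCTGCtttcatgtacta
Ccl12: accccagtcacgTGCTGTtataatgttgtt
Ccl4: cctcccacttccTGCTGTttctcttacacc
Ccl5: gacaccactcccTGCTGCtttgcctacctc
Ccl6: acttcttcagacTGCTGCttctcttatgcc
Ccl9: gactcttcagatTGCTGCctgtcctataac
The capitals differ between members only in the last base, TGCTGT in Ccl4 and Ccl12 and TGCTGC in the other 6, while the flanks differ at several positions. Ccl2 and Ccl7 were identical at 226 of 279 aligned coding bases (81.0%), and Ccl6 and Ccl9 at 258 of 327 (78.9%), with positions opposite a gap left out. Other pairs were about as close, such as Ccl2 with Ccl4 (80.9%) and with Ccl3 (79.1%), while Ccl6 and Ccl12 stood at 66.8%. The longest run of identical coding bases shared by any pair of the 9 ligands was 23 bases, between Ccl6 and Ccl9. The counts came from uniquely mapped read pairs, so reads that fit 2 members equally well were not counted.

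RefSeq promoter windows (GRCm38.p6, 250 bases before to 50 after the start site) were held for 6 members, Ccl3, Ccl6, Ccl8, Ccl9, Ccl12 and Ccr2. Windows of 3 genes are printed, up to the base before the start site, because Ccl12 had a lower and Ccl6 and Ccl9 a higher mean level after SN-011.
Ccl12, chr11:82101595-82101844, plus strand: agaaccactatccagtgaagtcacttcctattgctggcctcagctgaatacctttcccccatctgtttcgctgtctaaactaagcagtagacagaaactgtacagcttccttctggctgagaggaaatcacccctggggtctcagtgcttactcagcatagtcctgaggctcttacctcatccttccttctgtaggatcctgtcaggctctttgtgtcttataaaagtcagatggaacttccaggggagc
Ccl6, chr11:83593088-83593337, minus strand: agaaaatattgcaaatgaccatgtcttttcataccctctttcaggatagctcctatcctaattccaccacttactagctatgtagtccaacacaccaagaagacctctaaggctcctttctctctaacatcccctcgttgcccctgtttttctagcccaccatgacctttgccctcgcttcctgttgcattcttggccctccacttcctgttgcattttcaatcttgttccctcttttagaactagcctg
Ccl9, chr11:83578637-83578886, minus strand: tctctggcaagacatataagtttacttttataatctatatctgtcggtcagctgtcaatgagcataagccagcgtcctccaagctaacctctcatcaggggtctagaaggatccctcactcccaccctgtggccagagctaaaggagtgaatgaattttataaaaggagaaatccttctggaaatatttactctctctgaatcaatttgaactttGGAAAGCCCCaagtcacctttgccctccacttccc
Capitals mark matches to an interferon-stimulated response element (ISRE: GAAA, 2 bases of any kind, GAAA), an NF-kB site (GGG, 2 bases, TTTCC) or a gamma-activated sequence (GAS: TTC, 3 bases, GAA), searched on both strands over the 300-base windows. An NF-kB match beginning 35 bases before the start of Ccl9, on the strand opposite to the gene, was the only match in the 6 windows. Of 32851 RefSeq promoter windows, 3.44% held the ISRE letters, 1.63% the NF-kB letters and 8.30% the GAS letters, and absence from a window says only that these letters are not there.

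Library totals ran from 14253416 to 18443329 counts, and all 10 members passed the filter on low counts in all 4 tissues. The 4 samples named control 1 stood apart, with 3060 to 13811 counts of the female transcript Xist and 0 to 3 of the Y-linked Ddx3y, against 0 to 20 and 825 to 1898 in the other 20 samples. Controls 2 and 3 of heart, muscle and tongue carried gastric gland transcripts (Atp4a, Gkn1, Pgc and 4 others) at a summed 288 to 3055 CPM, against 6.37 to 49.2 in the other 12 samples of those tissues. Muscle SN-011 2 had counts on 11546 genes, where every other sample had at least 19798, and 39.2% of 3813 genes with at least 20 and under 200 counts in each of the other muscle samples were at 0 in it. Markers of heart, muscle, gastric glands and squamous tongue epithelium were each highest in the samples labelled with that tissue. No count of Trex1 was recorded in any sample, which a knockout can give. With no wild-type sample to show that an intact Trex1 would be counted, the genotype could not be checked against it. In bulk tissue, fewer cells of a type and less RNA per cell cannot be told apart.

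In the heart, 5 ligands were less abundant in every SN-011 sample than in any control, as were 13.0% of all genes tested. Ccl7 was the member that passed the test. Ccl7 stood at 28.8, 32.6 and 56.8 CPM (read counts scaled to a common library size, with TMM factors within a tissue) in controls and at 8.12, 6.04 and 11.9 CPM after SN-011. All treated hearts were below all control hearts. Its log2 fold change was -2.18 (SE 0.31, edgeR adjusted p = 0.0281). Ccl2, the best known monocyte chemoattractant, stood at 22.3, 13.6 and 30.5 CPM in control hearts and at 6.84, 3.74 and 8.50 CPM after SN-011. Ccl12, a rodent relative of Ccl2, stood at 8.90, 9.30 and 16.9 CPM in controls and at 2.88, 3.02 and 4.98 CPM after SN-011. The groups did not overlap for either gene, with log2 fold changes of -1.80 (SE 0.35) and -1.69 (SE 0.33), but both had an edgeR adjusted p of 0.0544. Ccl8, which binds a different receptor, overlapped between groups, at 35.9, 14.2 and 21.3 CPM in controls and 8.92, 17.9 and 19.3 CPM after SN-011.

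Ccl3 and Ccl4, the macrophage inflammatory proteins, followed the same direction in the heart without passing the test. Ccl3 stood at 10.1, 6.82 and 17.4 CPM in controls and at 3.35, 5.45 and 4.98 CPM after SN-011, a log2 fold change of -1.32 (SE 0.35, edgeR adjusted p = 0.0931). Ccl4 stood at 10.4, 10.7 and 20.3 CPM in controls and at 7.51, 4.73 and 7.56 CPM after SN-011, a log2 fold change of -1.07 (SE 0.31, edgeR adjusted p = 0.107). Both were lower in every treated heart than in any control heart. Ccl5, a T cell and NK cell product, was the member with the highest level per length in the heart and overlapped between groups, at 150, 95.1 and 125 CPM in controls and 94.2, 110 and 151 CPM after SN-011. Its log2 fold change was -0.06 with a 95% confidence interval from -0.53 to 0.41. Ccl6 and Ccl9 had log2 fold changes of 0.48 (SE 0.24) and 0.57 (SE 0.26), and their groups overlapped. Ccr2 stood at 41.0, 22.2 and 43.1 CPM in control hearts and at 26.3, 20.9 and 29.0 CPM after SN-011, a log2 fold change of -0.48 (SE 0.24, edgeR adjusted p = 0.276).

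Among the 16151 genes tested in the heart, 0.328% were called lower, against 1 of the 10 members, and 0.520% were called higher, against 0 members. In 5 members every treated sample lay below every control sample (Ccl2, Ccl3, Ccl4, Ccl7 and Ccl12), a pattern that held for 13.0% of all genes tested, and 0 members showed the reverse, beside 14.2%. The median log2 fold change of the members was -0.85, beside -0.01 over all genes tested. In 1 edgeR fit of all 24 samples, Ccl7 in heart was at -2.19 and did not pass (adjusted p = 0.517). The call on Ccl7 was lost when any 1 of the 3 treated hearts was left out, with edgeR adjusted p-values of 0.163, 0.157 and 0.0651 without SN-011 1, 2 and 3, and was kept without any 1 control. The log2 fold change was -2.13, -1.97 and -2.50 in those 3 fits, beside -2.18 with all hearts. Leaving out control 2, whose gastric transcripts were highest, brought 5 members below 0.05, all lower (Ccl2, Ccl3, Ccl7, Ccl12 and Ccr2), while the share of all genes called lower rose to 2.46%. Summed monocyte and macrophage markers overlapped between the groups of hearts, 2494 to 3254 CPM in controls and 2392 to 3244 CPM after SN-011. Summed T cell markers ran from 179 to 345 CPM in controls and from 160 to 243 CPM after SN-011, with all 12 markers negative in log2 fold change and 0 of them called. NK and cytotoxic markers ran from 75.9 to 138 CPM and from 69.6 to 97.9 CPM, with all 9 negative and 0 called. Markers of the heart itself separated, at 23344 to 33294 CPM in controls and 33658 to 41581 CPM after SN-011, with all 6 positive and 0 called. The part of these markers in the chemokine values was not tested.

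**Figure D1:**
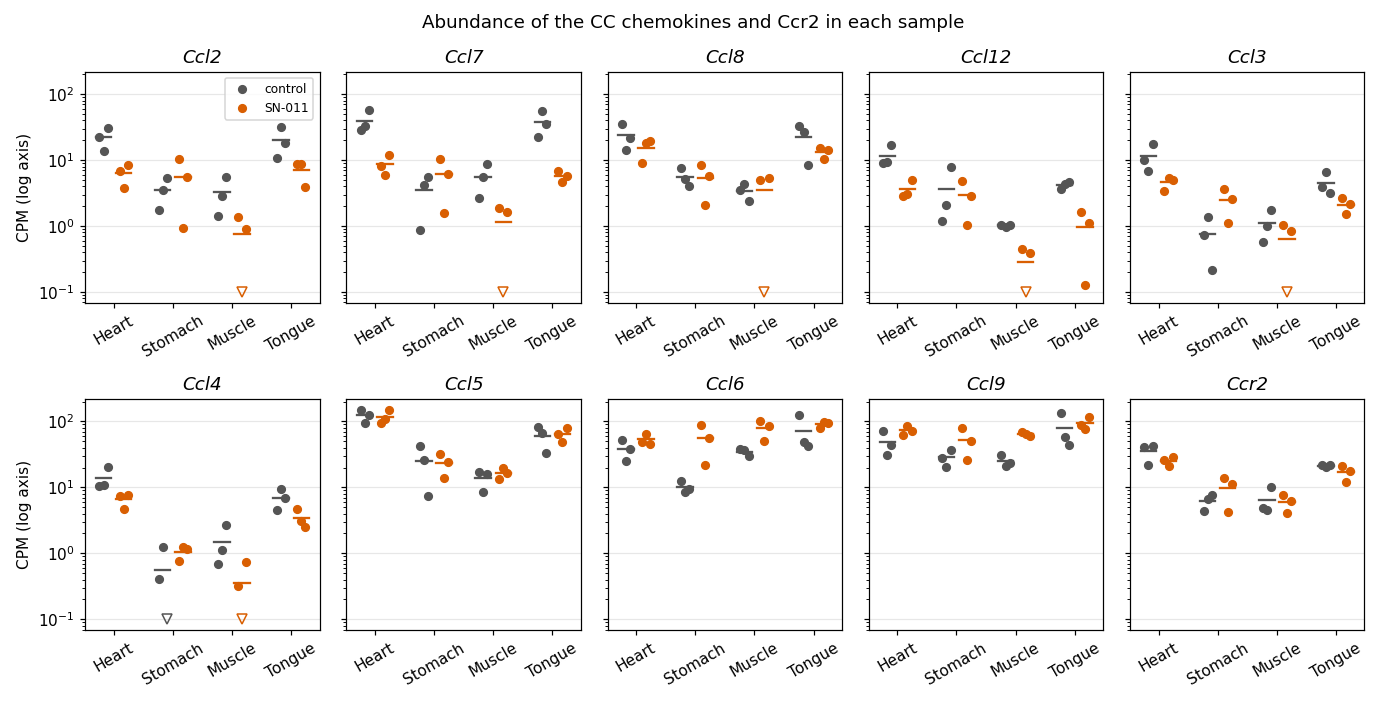
Abundance of each member in every sample, in CPM on a log axis, by tissue, for controls (grey) and SN-011 (orange); each dot is 1 sample, horizontal lines are means and open triangles mark samples with 0 counts, placed at the bottom of the axis. Ccl7 in heart and tongue separates fully between groups, Ccl5 overlaps in every tissue, and all open triangles but 1 belong to muscle SN-011 2.

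The tongue gave the largest difference of any member, again for Ccl7, but no member passed the test there, nor did any of the 16587 genes tested (0% in either direction). Ccl7 stood at 22.3, 56.3 and 35.3 CPM in control tongues and at 6.79, 4.65 and 5.66 CPM after SN-011. The lowest control was above the highest treated sample, and the log2 fold change was -2.73 (SE 0.36, edgeR adjusted p = 0.221, unadjusted p = 9.88e-05). Ccl12 stood at 3.68, 4.39 and 4.74 CPM in controls and at 1.61, 0.129 and 1.12 CPM after SN-011, a log2 fold change of -2.15 (SE 0.67). The lowest of these treated values rested on 2 counts. Ccl2 stood at 10.9, 31.3 and 17.9 CPM in controls and at 8.82, 8.78 and 3.98 CPM after SN-011, a log2 fold change of -1.48 (SE 0.45). Ccl3 had a log2 fold change of -1.11 (SE 0.39), also without overlap, and Ccl4 one of -1.03 (SE 0.37), with the groups overlapping.

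A set of 4 members (Ccl2, Ccl3, Ccl7 and Ccl12) had all treated tongues below all control tongues, beside 8.35% of genes tested, and 0 members the reverse, beside 9.43%. At an unadjusted p under 0.05 there were 5 members lower and 0 higher, where 7.33% and 5.17% of genes tested were lower and higher. Ccl6 and Ccl9 were spread widely in control tongues. Ccl6 stood at 126, 48.4 and 42.9 CPM in controls and at 80.2, 98.2 and 94.7 CPM after SN-011, and Ccl9 at 132, 58.7 and 44.2 CPM and at 87.3, 76.4 and 118 CPM. Control 1 was the highest of all 6 tongues for both genes, and their log2 fold changes were 0.33 (SE 0.40) and 0.26 (SE 0.40). No member was called when a tongue other than control 1 was left out, with edgeR adjusted p-values of 0.259 to 0.714 for Ccl7. Without control 1 the same edgeR test called 5 members: Ccl7 at -3.0 (adjusted p = 0.000973), Ccl2 at -1.77, Ccl4 at -1.25, Ccl6 at 1.00 and Ccl9 at 0.87. In that fit of 5 samples 8.04% of all genes were called lower, against 3 members, and 4.41% higher, against 2. The 2 controls left in it, 2 and 3, held 45870 and 67480 CPM of squamous epithelium markers where the treated tongues held 17210 to 26070 CPM, 25640 and 18660 CPM of muscle markers against 26610 to 30520 CPM, and 3055 and 2473 CPM of gastric gland markers against 12.7 to 44.7 CPM. Control 1 also held the most macrophage marker RNA, 2637 CPM, beside 1252 and 1689 CPM in the other control tongues and 1615 to 2011 CPM after SN-011. Control 3 carried 395 CPM of neutrophil markers where the other 5 tongues held 27.1 to 42.6 CPM. The part of these markers in the chemokine values was not tested.

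In skeletal muscle no member passed the test. Ccl6 and Ccl9 stood above every control in all treated samples, as did 14.7% of genes tested. Ccl2, Ccl7 and Ccl12, all rare there, stood below every control, as did 19.7% of genes tested. These 3 had SEs over 1 on the log2 scale and 0 counts in 1 treated sample. Ccl9 stood at 31.5, 21.3 and 23.3 CPM in controls and at 68.3, 63.8 and 60.6 CPM after SN-011, a log2 fold change of 1.34 (SE 0.18, edgeR adjusted p = 0.0764). Ccl6 stood at 38.4, 36.8 and 29.9 CPM in controls and at 103, 51.1 and 85.4 CPM after SN-011, a log2 fold change of 1.19 (SE 0.27, edgeR adjusted p = 0.163). Both were higher in every treated muscle than in any control, as were 14.7% of the 14198 genes tested. Only 2 genes in all were called in muscle (0.0141%), 0.00704% in each direction, and no member was among them. At an unadjusted p under 0.05, 2 members were higher, beside 8.96% of genes tested, and 0 lower, beside 5.80%.

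There were 6 ligands with 0 counts in muscle SN-011 2: Ccl2, Ccl3, Ccl4, Ccl7, Ccl8 and Ccl12. Ccl7 stood at 2.69, 5.54 and 8.66 CPM in control muscle and at 1.88, 0 and 1.64 CPM after SN-011, and Ccl2 at 1.42, 2.82 and 5.64 CPM and at 1.36, 0 and 0.906 CPM. These genes and Ccl12 were lower in every treated sample than in any control, as were 19.7% of genes tested. Without muscle SN-011 2 the log2 fold changes were -1.68 for Ccl7 (edgeR adjusted p = 0.0862), -1.55 for Ccl2 and -1.26 for Ccl12, where they had been -2.24, -2.10 and -1.80. The same omission brought Ccl6 to 1.43 (adjusted p = 0.0194) and Ccl9 to 1.35 (adjusted p = 0.0215), both past the threshold, as 3.60% of all genes then were in that direction, and turned Ccr2 from -0.13 to 0.07. Without control 1, Ccl9 alone of the members passed, at 1.52 (adjusted p = 0.0380), beside 0.398% of all genes. No member passed when a muscle sample other than SN-011 2 or control 1 was left out. The edgeR adjusted p-values were then 0.356 to 0.637 for Ccl6 and 0.221 to 0.434 for Ccl9. Summed macrophage markers were 677 to 690 CPM in control muscle and 896, 695 and 907 CPM in SN-011 1, 2 and 3, and SN-011 2 was also the treated sample lowest in Ccl6. Neutrophil markers stood at 5.65 to 7.20 CPM in control muscle and at 7.84 to 12.2 CPM after SN-011, and T cell markers at 28.7 to 32.5 and 22.4 to 26.8 CPM. Markers of skeletal muscle itself stood at 122770 to 137000 CPM in controls and 147520 to 177250 CPM after SN-011, and heart markers at 544 to 620 and 666 to 1056 CPM. The part of these markers in the Ccl6 and Ccl9 values was not tested.

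In the stomach Ccl6 showed the largest difference, and the monocyte chemoattractants overlapped between groups. Ccl6, a macrophage and neutrophil product, stood at 12.3, 8.53 and 9.34 CPM in controls and at 87.9, 22.1 and 56.9 CPM after SN-011. Every treated stomach was above every control, with a log2 fold change of 2.47 (SE 0.47, edgeR adjusted p = 0.0666). No gene of 17031 passed the test in the stomach (0%), although 11.4% were lower and 13.2% higher at an unadjusted p under 0.05. Ccl6 was the 1 member higher at that level, and 0 members were lower. Groups without overlap, SN-011 higher, were found for 17.8% of genes tested and for 1 of 10 members, and the reverse for 15.2% and for 0 members. Ccl9 stood at 28.0, 20.6 and 37.5 CPM in controls and at 79.8, 26.4 and 51.2 CPM after SN-011. Ccl2 stood at 1.77, 3.49 and 5.29 CPM in controls and at 10.3, 0.922 and 5.52 CPM after SN-011, and Ccl7 at 0.886, 4.23 and 5.61 CPM and at 10.6, 1.58 and 6.13 CPM. For 9 of the 10 members, all but Ccl4, SN-011 1 was the highest and SN-011 2 the lowest of the treated stomachs.

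The same ranking held in the treated stomachs for the summed markers of macrophages, T cells, NK cells, neutrophils and squamous keratins, and the reverse for those of gastric glands. Macrophage markers stood at 1493, 519 and 1081 CPM in SN-011 1, 2 and 3, with 672 to 943 CPM in controls, and T cell markers at 109, 35.4 and 70.0 CPM, with 80.8 to 93.9 CPM in controls. Neutrophil markers stood at 5.92 to 7.90 CPM in controls and at 14.4 to 33.5 CPM after SN-011. NK and cytotoxic markers separated the other way, 21.6 to 26.7 CPM in controls and 8.50 to 13.0 CPM after SN-011, with all 5 that were tested negative in log2 fold change and 0 called. Squamous keratin markers ran from 120 to 250 CPM in control stomachs and from 541 to 1618 CPM after SN-011, and the gastric gland markers from 47447 to 153500 CPM and from 20790 to 116500 CPM. Their part in the Ccl6 difference was not tested. Without SN-011 2, Ccl6 reached a log2 fold change of 2.83 (edgeR adjusted p = 0.0470), with 0.313% of all genes called higher. Each other omission left Ccl6 outside the threshold, at edgeR adjusted p-values of 0.0666 to 0.241. The smallest of these changes was 1.98, without SN-011 1. Without SN-011 1, Ccl2 turned from 0.66 to -0.12 on the log2 scale. Ccl5 had the highest mean per length of the ligands in control stomachs but scattered from 7.47 to 42.9 CPM among them, against 13.9 to 31.7 CPM after SN-011.

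**Figure D2:**
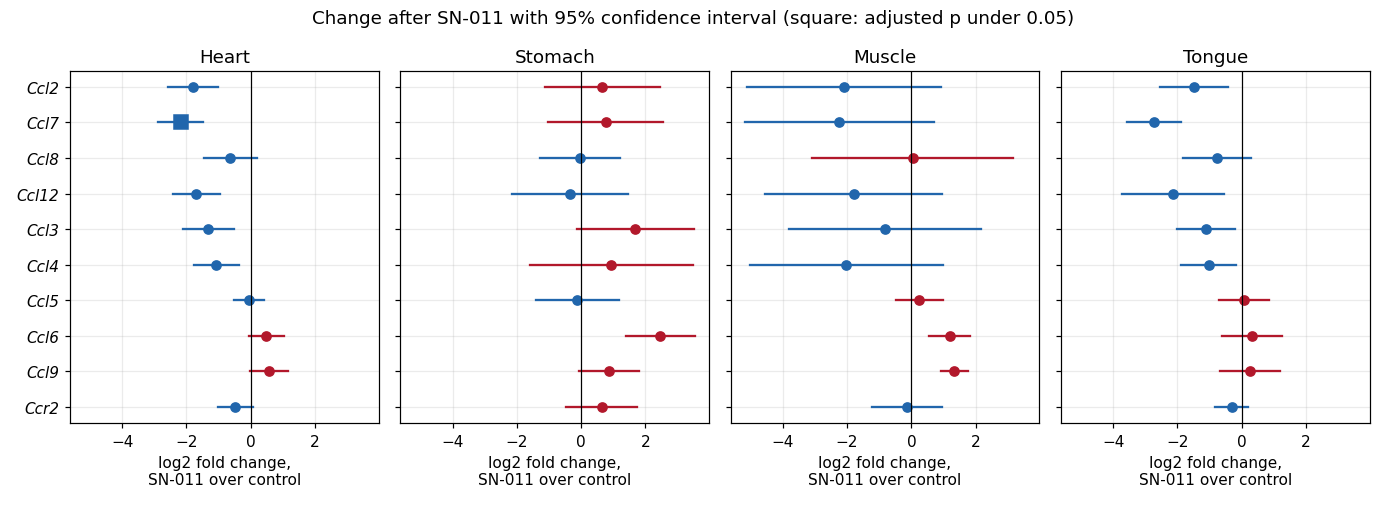
Log2 fold change of each member, SN-011 over control, with its 95% confidence interval (lines), in 4 tissues; blue marks lower and red higher, and a square marks an adjusted p under 0.05. Ccl7 in heart is the one square, Ccl5 sits near 0 in all 4 panels, and Ccl6 and Ccl9 lie to the right of 0 throughout.

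Averaged over the 4 tissues in 1 edgeR fit of all 24 samples, the monocyte chemoattractants Ccl7 and Ccl12 fell, and Ccl6 and Ccl9 rose. Ccl7 fell by 1.61 on the log2 scale (SE 0.38, adjusted p = 0.00843) and Ccl12 fell by 1.51 (SE 0.39, adjusted p = 0.0156). The stomach ran the other way for Ccl7, at 0.73 (SE 0.74) in this fit, and held Ccl12 at -0.36 (SE 0.73). Ccl6 rose by 1.09 (SE 0.21, adjusted p = 0.00284) and Ccl9 by 0.73 (SE 0.19, adjusted p = 0.0166). Ccl2, at -1.19 (SE 0.39, adjusted p = 0.0514), lay just outside the threshold, and passed it with DESeq2's size factors (adjusted p = 0.0451), with no filter on low counts (0.0201) and without the 4 samples named control 1 (0.0331). It did not pass with library size alone (0.0601), and adjusted p-values ran from 0.0325 to 0.113 when 1 sample at a time was left out. Among the 19731 genes of this fit, 7.67% were called lower and 4.32% higher, against 2 and 2 of the 10 members. Ccl5 and Ccr2 averaged -0.0040 and -0.10, with 95% confidence intervals from -0.47 to 0.46 and from -0.52 to 0.32.

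This fit counts tissues as separate mice. When samples of the same treatment and number were averaged over tissues and compared 3 against 3 with limma, 0 members passed, beside 0.0557% of the 19731 genes, at adjusted p-values of 0.0767 for Ccl6, 0.116 for Ccl9, 0.156 for Ccl7 and 0.166 for Ccl12. For Ccl2 it was 0.199. The log2 fold changes by limma were 1.07 for Ccl6, 0.76 for Ccl9, -1.79 for Ccl7 and -1.57 for Ccl12.

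**Figure D3:**
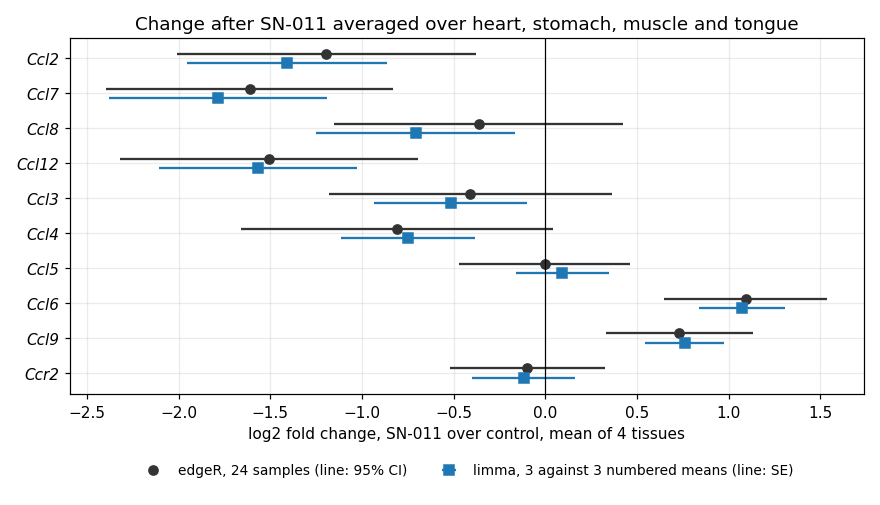
Log2 fold change averaged over heart, stomach, muscle and tongue for each member, from edgeR on 24 samples (circles, lines are 95% confidence intervals) and from limma on 3 against 3 numbered means (squares, lines are SE). Ccl7 and Ccl12 lie furthest left and Ccl6 furthest right under both.

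Whether the response differed between tissues was tested as the difference of 2 tissue contrasts, and 0 members passed in any of the 6 pairs of tissues in the fit without the sample number. The backgrounds were 2.01% of genes for heart and stomach, 0.00507% for heart and muscle, 0% for heart and tongue, 6.95% for stomach and muscle, 0.821% for stomach and tongue, and 0.0355% for muscle and tongue. The nearest were Ccl6, with a heart minus stomach difference of -1.95 on the log2 scale (edgeR adjusted p = 0.0986) and 2.09 higher in stomach than in tongue (0.0955), and Ccl7, 2.99 higher in stomach than in muscle (0.0943). With the sample number as a term, that difference in Ccl7 passed, at 3.12 (adjusted p = 0.0400), as did 6.54% of all genes, and 0 members passed in the other 5 pairs. Without muscle SN-011 2, which had 0 counts of Ccl7, it was 2.42 (adjusted p = 0.106), and 0 members passed in that pair, beside 8.19% of all genes. With that sample left out, Ccl3 and Ccl7 passed between heart and stomach, at -2.96 (adjusted p = 0.0316) and -2.91 (0.0418), and the share of all genes called rose to 5.72%. Ccl6 and Ccl7 then passed between stomach and tongue, at 2.09 (0.0459) and 3.46 (0.0284), beside 3.96% of all genes.

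The level of each member in the untreated Trex1-/- tissues was then compared, on CPM scaled over all 24 samples. Per kilobase of exon, Ccl5 led in control hearts at 115 ± 26.3 CPM per kb (SD, n = 3), and its lowest heart, 88.3, was above the highest value of any other member, 63.7 for Ccl7. Ccl7 (44.2 ± 17.0) and Ccl8 (42.0 ± 19.8) followed. Ccl12, Ccl6, Ccl4, Ccl2, Ccl9 and Ccl3 came next, between 19.6 and 13.4 CPM per kb, with each overlapping its neighbours in that order. Ccr2 was lowest, at 4.71 ± 1.55. In control tongues Ccl5 (53.9 ± 21.9), Ccl7 (40.3 ± 18.6), Ccl8 (37.6 ± 20.8) and Ccl6 (34.0 ± 21.4) all overlapped. In control muscle Ccl6 was first, at 32.2 ± 3.59 CPM per kb, overlapping with Ccl5 at 23.8 ± 7.68, and Ccl9 (13.7 ± 2.67) came next. In control stomachs Ccl5 (22.4 ± 16.0), Ccl8 (9.22 ± 3.33) and Ccl9 (7.84 ± 2.14) had the highest means, their ranges overlapping, and Ccl3, Ccr2 and Ccl4 were each below 1 on average, at 0.846, 0.770 and 0.702 CPM per kb.

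**Figure D4:**
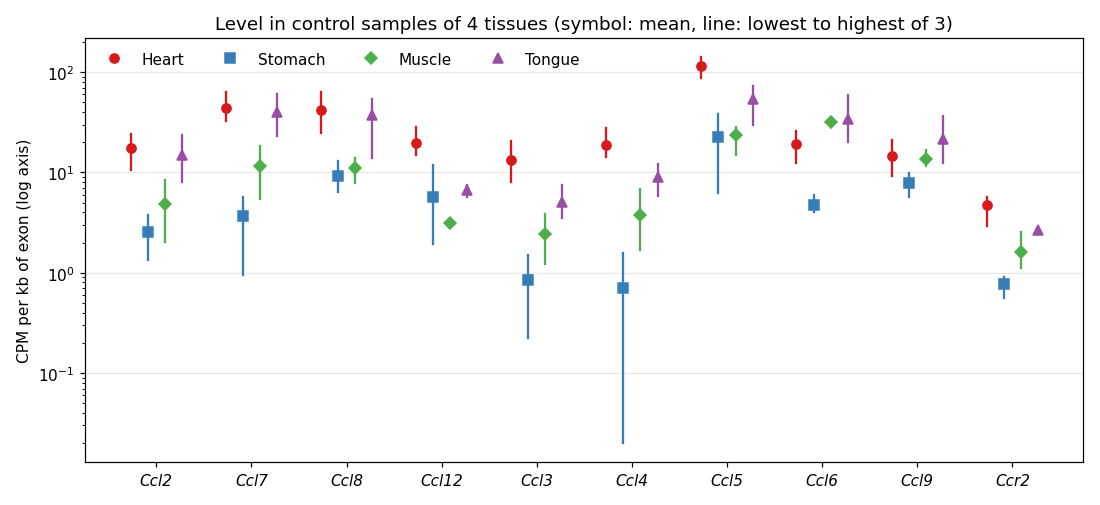
Level of each member in control samples of the 4 tissues, in CPM per kilobase of exon on a log axis; symbols are means and lines run from the lowest to the highest of 3 samples, with the 1 stomach sample at 0 counts of Ccl4 drawn to the foot of its line. Stomach has the lowest mean for 9 of the 10 members, though its range overlaps that of muscle for Ccl5 and Ccl8, among others. Ccl5 in heart is the highest symbol.

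Heart exceeded stomach for 8 members by edgeR on the control groups, where 42.5% of all genes differed between those tissues in either direction and 4137 of 19731 genes were higher in heart. The differences ran from 2.03 for Ccl6 to 4.74 for Ccl4 on the log2 scale, and Ccl9 and Ccl12 did not pass. Tongue exceeded stomach for 9 members (36.9% of genes in either direction, 3951 genes higher in tongue), all but Ccl12, by 1.27 for Ccl5 up to 3.68 for Ccl4. Heart exceeded muscle for 5 (33.7% in either direction, 3349 genes higher in heart): Ccl12 by 2.63, Ccl3 by 2.46, Ccl4 by 2.31, Ccl5 by 2.28 and Ccr2 by 1.56. Muscle exceeded stomach for 3 (51.6% in either direction, 4793 genes higher in muscle), Ccl6 by 2.78, Ccl4 by 2.43 and Ccr2 by 1.05. Tongue exceeded muscle for Ccl5 by 1.18 (38.1% in either direction, 3940 genes higher in tongue), and heart and tongue differed for 0 members (29.1% in either direction). With the sample number as a term, the members called changed in every pair, and the shares given beside them are of all genes called in either direction. Heart and stomach gained Ccl12 (1.97, adjusted p = 0.0157), for 9 members beside 41.3% of genes. Heart and muscle gained Ccl2 (2.06, adjusted p = 0.0342) and Ccl7 (2.06, 0.0117), for 7 beside 32.5%, and stomach and muscle gained Ccl7 (0.0215), for 4 beside 50.1%. Stomach and tongue lost Ccl8 (0.0515), leaving 8 beside 35.2%. In heart against tongue 1 member passed (Ccl5, adjusted p = 0.0414), beside 27.8%, and in muscle against tongue 3 did (Ccl5, Ccl7 and Ccr2), beside 37.3%. Without the 4 samples named control 1, the counts were 6 for heart and stomach (32.6% of genes in either direction), 2 for heart and muscle (24.5%), 0 for heart and tongue (22.8%), 1 for stomach and muscle (43.1%), 5 for stomach and tongue (29.2%) and 0 for muscle and tongue (32.6%).

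The make-up of the ligand pool is described without a test. As a share of counts per exonic base summed over the 9 ligands, Ccl2, Ccl7, Ccl8 and Ccl12 made up 37.5% to 43.9% in control hearts and 19.4% to 23.6% after SN-011. In tongue their share was 33.9% to 53.2% in controls and 18.5% to 24.3% after SN-011, and in muscle 20.9% to 33.1% and 0% to 14.0%. In the stomach it overlapped, 24.2% to 57.1% and 18.6% to 29.6%. Ccl6 and Ccl9 together made up a larger share without overlap in all 4 tissues, from 9.08-13.8% to 16.7-26.2% in heart, 17.9-29.4% to 44.0-46.4% in stomach, 34.9-49.1% to 66.9-72.6% in muscle and 15.5-35.5% to 36.5-46.4% in tongue. The shares add up to the whole, so a lower share of one ligand lifts the others. On their own CPM, Ccl6 and Ccl9 each overlapped between groups in heart and in tongue.

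**Figure D5:**
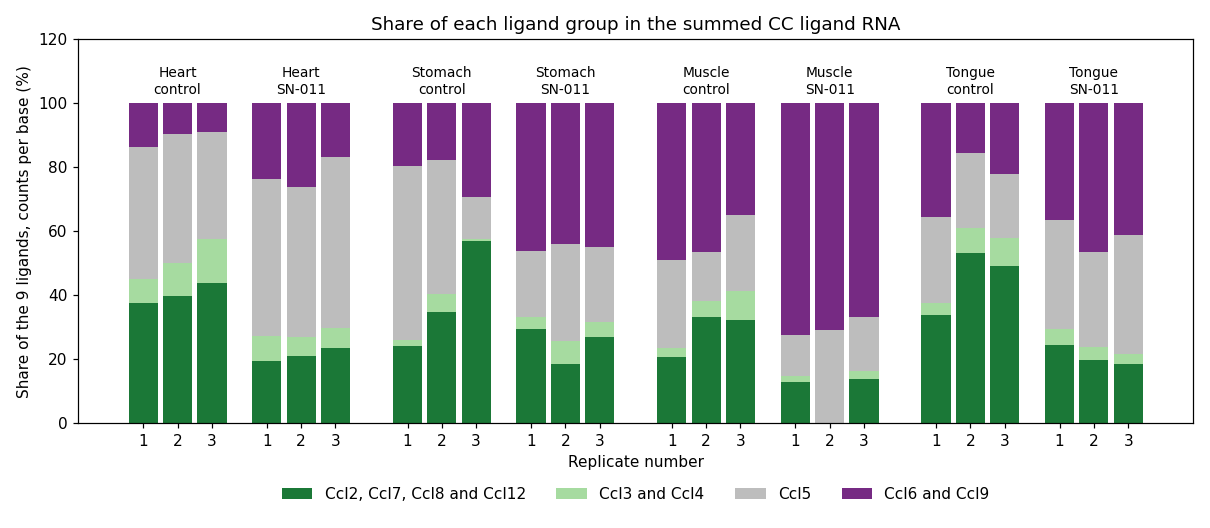
Share of 4 ligand groups in the counts per exonic base summed over the 9 ligands, in percent, 1 bar per sample. The purple share (Ccl6 and Ccl9) is larger in each SN-011 sample than in any control of its tissue, and muscle SN-011 2 has only Ccl5, Ccl6 and Ccl9.

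The rest of the CC family was described from lists: 12 other ligands, of which 10 matched 1 identifier, and 13 other receptors. None was called in any tissue by edgeR. The other receptors had median log2 fold changes of -0.55 in heart (10 tested), 0.40 in stomach (10), 0.08 in muscle (7) and -0.55 in tongue (8), and the other ligands -0.15 (5 tested), -0.14 (5), -0.49 (4) and -0.32 (6). Ccr1, a receptor for Ccl6, Ccl9 and other members, stood at 2.60 ± 1.90 CPM in control hearts and 1.40 ± 0.207 CPM after SN-011 (SD, n = 3), and at 3.51 ± 0.899 and 6.16 ± 3.93 CPM in the same groups of stomachs (adjusted p = 0.416 and 0.402 by edgeR). Ccl11, an eosinophil chemoattractant from the same gene cluster, stood at 23.1 ± 14.6 CPM in control tongues and 12.0 ± 1.28 CPM after SN-011 (adjusted p = 0.399 by edgeR).

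After the mean of each tissue was removed, Ccl2, Ccl3, Ccl7 and Ccl12 were among the members that varied together across the 24 samples. Ccl2 and Ccl7 had a Pearson r of 0.95, Ccl7 and Ccl12 0.90, Ccl2 and Ccl12 0.81, Ccl3 and Ccl7 0.81, Ccl2 and Ccl3 0.79, and Ccl3 and Ccl12 0.62. Ccl3 and Ccl4 gave 0.86 and Ccl6 and Ccl9 0.83, while Ccl9 with Ccl4 gave -0.46. Without muscle SN-011 2 the first 6 values ran from 0.41 to 0.91 and the last 3 were 0.76, 0.85 and -0.46. Ccr2 had its highest r with Ccl2 (0.72), and without muscle SN-011 2 it gave 0.59 to 0.71 with Ccl2, Ccl3, Ccl7 and Ccl12. Over all 24 samples Ccl3 and Ccl8 gave 0.75, Ccl4 and Ccl7 0.73, and Ccl2 and Ccl8 0.70. Without muscle SN-011 2 these were 0.44, 0.52 and 0.29. Ccl5 had its highest r with Ccl9, at 0.34, and without muscle SN-011 2 with Ccl8, at 0.61, where it had been 0.22 over all samples. Of 12580 genes outside the CC lists with at least 1 CPM in every tissue, Apol10b (r = 0.93), Scimp (0.92) and Mdfic (0.90) were most like Ccl2. Gpsm3 (0.90), Cyba (0.89) and Psap (0.86) were most like Ccl5, and Il10ra (0.87), Nrros (0.84) and Fmnl1 (0.83) most like Ccr2. Without muscle SN-011 2 these 9 values ran from 0.80 to 0.91, with Apol10b and Gpsm3 still first. The points share treatment, library and depth, and these correlations are descriptions.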

How the data were processed

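Gene counts were analysed for 24 polyA+ libraries, 3 per group. The authors mapped reads with hisat2 and deposited raw counts per Ensembl gene from uniquely mapped pairs; the methods name featureCounts and the labels HISAT2, HTSeq and mm10. Symbols, lengths and coordinates came from GENCODE M21 (GRCm38), which held 54495 of the 54532 identifiers. Each tissue was fitted alone with edgeR 4.0.16 (R 4.3.3): TMM, filterByExpr with a minimum count of 10, quasi-likelihood test, Benjamini-Hochberg adjustment over all genes tested and a call at an adjusted p under 0.05. Means over tissues, tissue differences and control levels came from 1 joint edgeR fit of 8 groups; limma 3.58.1 compared numbered means. The scripts were tested on simulated data.

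All members are named; from other lists, Ccr1, Ccl11 and any called gene are named, except for an item that is not reported here, and the 3 genes most like Ccl2, Ccl5 and Ccr2. Members and lists were chosen with earlier results of these data known. Same-numbered control samples deviated together between tissues (r over 0.1 in 16 of 18 comparisons, all 3 in each pair of tissues but stomach and tongue), SN-011 samples in 6 of 18, so control levels and tissue differences are also given with the number as a term. Precision rests on 14253416 to 18443329 counts per sample. At 3 counts, the limit that a count of 0 allows, the level was 0.163 to 0.210 CPM, for counting error only.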

Additional observations from a re-analysis of the deposited data

How the results depend on the processing

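The number of members called within a tissue moved with the processing, as did the share of all genes called, given in brackets, and the cause was not tested. In heart it was 1 in the reported fit (0.848%), 3 with library size alone (1.54%), 7 with no filter on low counts (6.23%), 3 with at least 10 counts in every sample (1.84%), 5 by edgeR's exact test (5.65%), 5 by DESeq2 (8.43%), 0 in the joint fit (0.00507%) and 3 with a replicate block (1.5%); all were lower but Ccl9 with no filter. In stomach it was 0 (0%), and 1, Ccl6 being higher, with no filter (4.98%), by the exact test (10.6%), by DESeq2 (14.0%), in the joint fit (13.9%) and with the block (1.06%). In muscle it was 0 (0.0141%), then 1 with no filter (0.424%), 1 with at least 10 counts (0.733%), 2 by the exact test (3.11%) and 2 by DESeq2 (6.20%), all higher. In tongue it was 0 (0%), then 1 with no filter (0.0638%), 1 by the exact test (1.48%) and 3 by DESeq2 (2.52%), all lower. For the mean of 4 tissues it was 4 (12.0%), then 2 with at least 10 counts (23.1%), 0 with the block (0.0557%), and 5, Ccl2 being added, with DESeq2's size factors (13.4%), with no filter (5.95%) and without the 4 samples named control 1 (14.4%). For response it became 1 with library size alone (3.02%) and 1 with at least 10 counts (8.85%) for heart and stomach, 2 with no filter (0.876%) and 1 with at least 10 counts (4.42%) for stomach and tongue, and 1 with the block (6.54%), for Ccl7 in stomach and muscle.

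For control levels, counts within 1.5 times the reported one are left out here except with the block. Library size alone gave 8 for heart and muscle (48.4%), 1 for stomach and muscle (58.8%) and 8 for muscle and tongue (46.9%), and DESeq2's size factors 2 for muscle and tongue (38.8%). No filter gave 8 for heart and muscle (16.8%) and 3 for muscle and tongue (19.3%). At least 10 counts, which keeps fewer members, gave 3 for heart and stomach (55.1%), 2 for heart and muscle (49.2%), 1 for heart and tongue (36.7%), 1 for stomach and muscle (64.2%) and 4 for stomach and tongue (45.2%). The block gave 9 for heart and stomach, 7 for heart and muscle, 1 for heart and tongue, 4 for stomach and muscle, 8 for stomach and tongue and 3 for muscle and tongue, where the reported fit gave 8, 5, 0, 3, 9 and 1. Omission of the 4 samples named control 1, chosen after seeing the data, gave 2 for heart and muscle, 1 for stomach and muscle, 5 for stomach and tongue and 0 for muscle and tongue.

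Among changes within a tissue and their mean, signs turned for 4 values with all samples kept or without the samples named control 1. Tissue differences near 0 turned too with the sample number as a term. The response of Ccl5 went from 0.11 to -0.041 for heart minus stomach, and that of Ccl8 from -0.12 to 0.080 for stomach minus muscle. The control level of Ccl6 went from -0.081 to 0.073 for muscle minus tongue. The 4 values were these. Stomach Ccl5 became 0.22 with library size alone and 0.080 with the block, and stomach Ccl8 0.25 with library size alone and 0.028 with at least 10 counts. Muscle Ccl8 became -0.0052 with DESeq2's size factors, -0.15 with library size alone, -0.0080 by DESeq2 and -0.64 with the block. The mean Ccl5 change became 0.0082 with DESeq2's size factors, 0.042 with library size alone, 0.022 with at least 10 counts, 0.092 with the block and 0.30 without the 4 samples named control 1.

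Leaving out 1 sample at a time gave 0 to 5 members called in heart (0.00598% to 4.74% of all genes), 0 to 1 in stomach (0% to 0.356%), 0 to 2 in muscle (0% to 7.40%), 0 to 5 in tongue (0% to 12.5%) and 4 to 5 for the mean (8.35% to 17.0%). Response ran from 0 to 2 for heart and stomach (0.0731% to 5.72%) and for stomach and tongue (0.0295% to 3.96%), and from 0 to 1 for stomach and muscle (2.13% to 11.9%). Control levels ran from 7 to 9 (34.2% to 50.4%), 2 to 8 (24.9% to 41.7%) and 0 to 1 (19.8% to 37.4%) for heart against stomach, muscle and tongue, from 1 to 5 (43.4% to 58.3%) and 5 to 9 (29.8% to 45.4%) for stomach against muscle and tongue, and from 0 to 4 (30.3% to 45.5%) for muscle against tongue. The log2 fold changes within a tissue, or averaged, that changed sign follow. Heart Ccl5 ran from -0.29 to 0.090. Stomach values ran from -0.12 to 1.15 (Ccl2), -0.58 to 0.45 (Ccl5), -0.50 to 0.33 (Ccl8) and -0.91 to 0.79 (Ccl12). Muscle values ran from -0.0097 to 0.41 (Ccl5), -0.41 to 0.62 (Ccl8) and -0.34 to 0.35 (Ccr2). Tongue values ran from -0.22 to 0.36 (Ccl5) and -0.028 to 0.87 (Ccl9), and the mean from -0.12 to 0.15 (Ccl5) and -0.18 to 0.027 (Ccr2).

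The replicate numbers did not pair control with SN-011 samples within a tissue (r of -0.47 to 0.29 between same-numbered deviations), so the block there is a value beside the main fit. Muscle SN-011 2 limits every low count in muscle, and 3 samples a group limit all calls.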
